A study of Mus musculus with 9 samples.

Results

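The genes described here are ATF4, 16 genes of its pathway and the 20 cytosolic aminoacyl-tRNA synthetases, measured by RNA sequencing of mouse spleen Tregs (regulatory T cells, the Foxp3-expressing cells that restrain immune responses). The 37 genes were chosen by symbol from 23393 gene symbols counted in each library, and all 37 were found. After a filter on low counts, 36 of them remained among the 12219 genes tested. Chac1, a glutathione-degrading enzyme, was not tested, with 17 counts over all libraries and 0 to 0.29 CPM (counts scaled to a common library size). The study's title places ST2+ Tregs in the setting of ischemic kidney injury. Il1rl1 encodes ST2, which binds interleukin-33. Each of 3 groups had 3 libraries: wild-type cells low in ST2 (WT-ST2 Low, called ST2-low), wild-type cells high in ST2 (WT-ST2 High, called ST2-high), and cells whose genotype is ST2KO. The labels give no treatment or injury for any group, no strain, age or sex, no description of the ST2KO allele and no sorting gates. Nothing in them ties replicates to separate animals. The p-values weigh the difference between groups against the spread of these libraries within a group, and that spread could be technical.

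ATF4 is a transcription factor whose protein is made mainly when the initiation factor eIF2 is phosphorylated. The kinases GCN2, PERK, PKR and HRI phosphorylate eIF2 in response to amino acid shortage, endoplasmic reticulum stress, double-stranded RNA and heme shortage. ATF4 pairs with C/EBP family proteins on composite DNA elements and raises genes for amino acid import, amino acid synthesis and tRNA charging, together with feedback genes. Aminoacyl-tRNA synthetases join each amino acid to its tRNA, and several of them are held in one large complex in the cytosol. Because ATF4 is controlled largely at translation, the level of its mRNA is not a measure of its activity.

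Promoter sequences are shown for Eprs, whose transcript had the largest ST2KO difference among the synthetases, and for 4 genes that hold the ATF4 to C/EBP composite element. RefSeq promoters of GRCm38.p6, from 250 bases before to 50 bases after the annotated start, were matched for 29 of the 37 genes (13 synthetases and 16 genes of the ATF4 group). Each is printed 5′ to 3′ on the strand of the gene. The capitals mark the composite element, searched as TGATGNAA on both strands, so that on the opposite strand the capitals read as its reverse complement. Eprs lies at chr1:185362794-185363093 on the plus strand, Asns at chr6:7693160-7693459 on the minus strand and Trib3 at chr2:152344011-152344310 on the minus strand. Iars lies at chr13:49681880-49682179 and Yars at chr4:129189653-129189952, both on the plus strand.
Eprs: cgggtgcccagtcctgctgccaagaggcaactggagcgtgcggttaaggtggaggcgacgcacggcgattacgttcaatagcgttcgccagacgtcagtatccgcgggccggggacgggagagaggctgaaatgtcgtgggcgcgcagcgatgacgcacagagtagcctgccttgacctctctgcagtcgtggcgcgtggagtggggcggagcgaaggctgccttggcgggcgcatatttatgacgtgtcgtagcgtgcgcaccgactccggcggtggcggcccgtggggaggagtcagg
Asns: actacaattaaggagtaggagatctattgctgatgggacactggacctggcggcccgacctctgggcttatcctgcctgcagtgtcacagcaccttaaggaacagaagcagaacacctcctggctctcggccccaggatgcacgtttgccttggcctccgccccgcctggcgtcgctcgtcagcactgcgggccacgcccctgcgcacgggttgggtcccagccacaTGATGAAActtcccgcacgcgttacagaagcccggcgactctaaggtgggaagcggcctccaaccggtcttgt
Trib3: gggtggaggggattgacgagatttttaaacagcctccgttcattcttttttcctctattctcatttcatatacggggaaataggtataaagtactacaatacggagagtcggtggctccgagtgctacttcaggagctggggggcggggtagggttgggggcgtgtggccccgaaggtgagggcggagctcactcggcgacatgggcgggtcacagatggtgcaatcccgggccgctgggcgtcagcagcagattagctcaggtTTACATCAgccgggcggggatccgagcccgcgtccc
Iars: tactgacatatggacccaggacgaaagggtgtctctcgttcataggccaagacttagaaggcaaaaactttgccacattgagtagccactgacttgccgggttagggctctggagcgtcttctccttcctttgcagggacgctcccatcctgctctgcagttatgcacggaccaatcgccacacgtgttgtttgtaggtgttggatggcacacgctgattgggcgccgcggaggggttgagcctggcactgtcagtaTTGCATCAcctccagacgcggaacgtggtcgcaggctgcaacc
Yars: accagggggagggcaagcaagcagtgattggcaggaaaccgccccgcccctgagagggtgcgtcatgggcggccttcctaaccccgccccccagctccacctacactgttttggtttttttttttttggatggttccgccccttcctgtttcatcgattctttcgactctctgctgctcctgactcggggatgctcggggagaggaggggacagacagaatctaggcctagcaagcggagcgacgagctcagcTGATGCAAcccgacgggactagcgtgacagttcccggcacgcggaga
The element was found in 5 of the 13 synthetase genes with a promoter (Aars, Gars, Iars, Tars and Yars) and in 3 of the 16 ATF4 group genes (Asns, Chac1 and Trib3). Of 27025 mouse gene symbols with promoters of the same length, 4.51% held it in any promoter. The E-box CACGTG was found in Aars, Farsb, Iars and Tars and in none of the 16 ATF4 group genes, against 8.09% of all gene symbols. The cAMP response element TGACGTCA was found in Ppp1r15a and in no other of the 29 genes, against 2.03% of all gene symbols. The Eprs window held none of the 3 motifs. A match describes letters in this window and does not show that a factor binds there.

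Libraries held between 11659659 and 43406680 counts, of which 27295 to 101107 fell on the 37 genes. ST2-high replicate 3 stood apart from its group, with a chi-square per gene of 16.5 and 19.9 against the other ST2-high libraries, where the pairs without it gave 4.46 to 8.22. Without it, 2 synthetases and 6 ATF4 group genes were called in ST2-high against ST2-low, the same numbers as with it but not the same genes. Eprs (edgeR adjusted p = 0.0926) and Asns (0.0625) lost their calls, and Dars (0.0486) and Psph (0.035) gained one. In ST2KO against ST2-high, 14 and 10 were called without it and 13 and 9 with it. Il1rl1 followed the sort in wild-type cells, at 2.1 to 3.6 CPM in ST2-low and 421 to 547 CPM in ST2-high. In ST2KO it was at 57.7 to 83.6 CPM. A count per gene does not show which exons are missing, so this does not check the ST2KO label. The Treg markers Foxp3 (410 to 622 CPM) and Il2ra (389 to 532 CPM) were present in every library. The 7 Treg markers summed to 4757 to 4886 CPM in ST2-low, 5392 to 5672 CPM in ST2-high and 3849 to 3969 CPM in ST2KO. Single markers ran from -1.34 to 0.39 in ST2KO against ST2-low and from -1.43 to 0.21 against ST2-high on the log2 scale. Transcripts of some other spleen cells, among them myeloid and plasma cells, moved with the ST2KO label. The summed level of 15 myeloid and dendritic markers was 170 to 221 CPM in ST2-low and 156 to 159 CPM in ST2-high. Their sum in ST2KO was 46.8 to 62.1 CPM. Of the 15, 13 were lower in ST2KO than in ST2-low, beside 29.3% of all tested genes. Summed plasma cell markers were 83.7 to 132 CPM in ST2-low, 79.0 to 122 CPM in ST2-high and 61.2 to 70.9 CPM in ST2KO. None of the myeloid, B cell, plasma cell or neutrophil markers was at 0 in all libraries, and their part in the differences below was not tested. In such bulk samples, fewer cells of a type and less RNA per cell cannot be told apart.

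The transcripts that set ST2KO apart most were Eprs among the synthetases and Sesn2 and Ddit3 in the ATF4 group, all lower than in both wild-type groups. Asns was lower in ST2KO than in ST2-high, but its ST2KO and ST2-low libraries overlapped. The other synthetases moved little and in both directions. A principal component analysis of the 36 tested genes gave a first component with 71.7% of the variance, on which the 3 ST2KO libraries lay apart from the 6 wild-type libraries. The second component, with 12.7%, placed the 3 ST2-high libraries above the 3 ST2-low libraries. The 2 comparisons with ST2KO share the ST2KO libraries, and their values are given side by side.

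**Figure D1:**
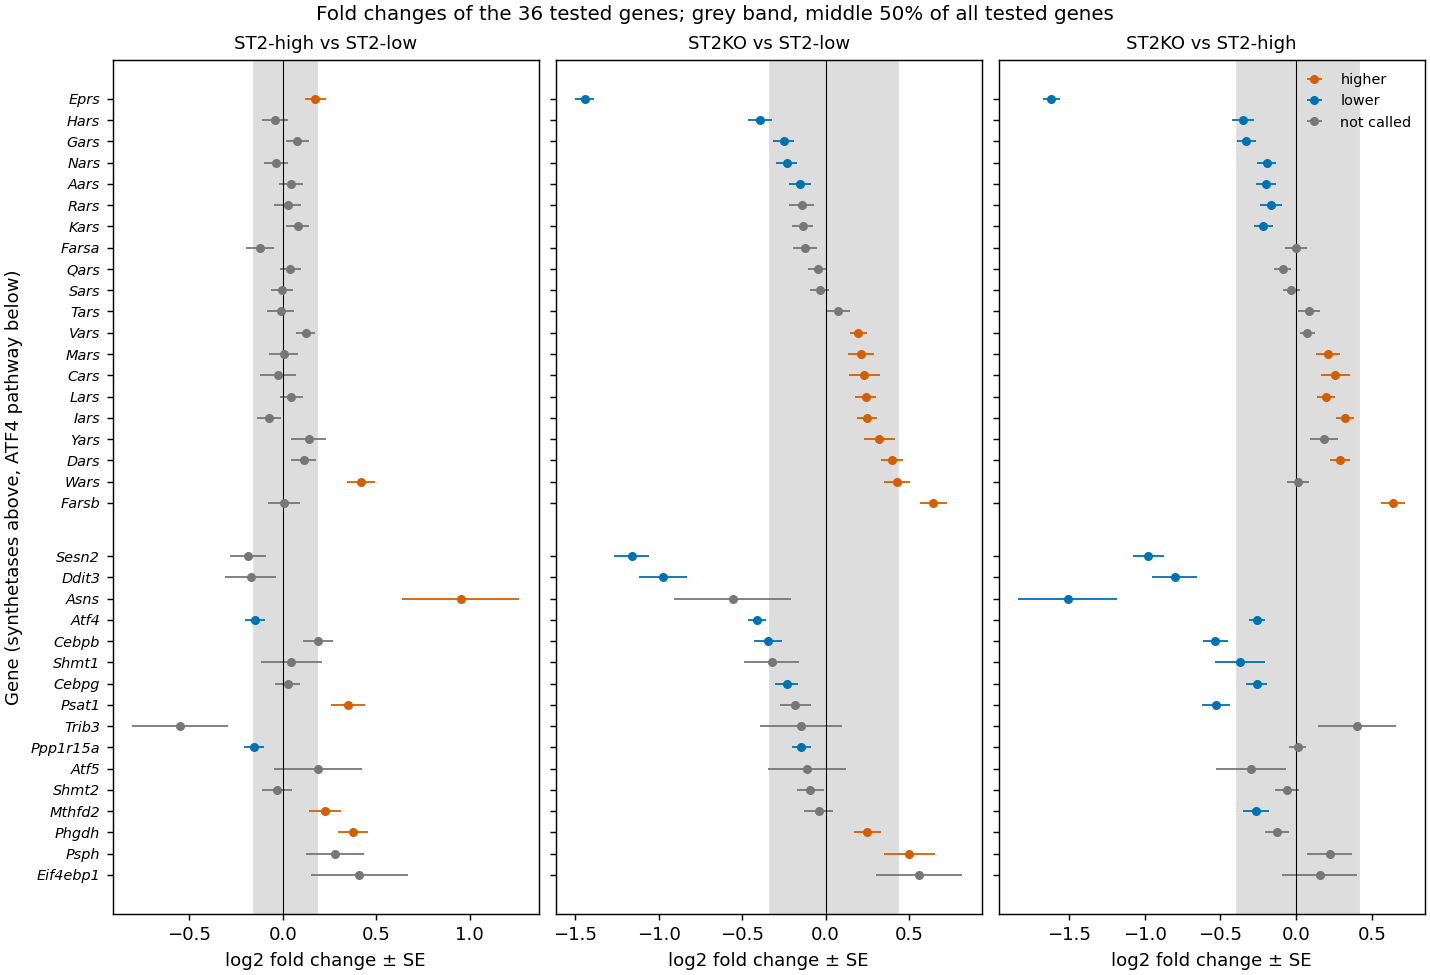
Log2 fold change with its standard error (x axis) for each of the 36 tested genes (y axis) in the 3 comparisons, coloured by call at an adjusted p of 0.05, with the middle 50% of all tested genes in grey. Eprs lies at -1.44 and -1.62 in the ST2KO comparisons, far to the left of the other 19 synthetases.

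Among the 20 synthetases, 9 were higher, 5 lower and 6 not called in ST2KO against ST2-low, where 33% of all tested genes were called higher and 29.3% lower (edgeR's quasi-likelihood test, Benjamini-Hochberg adjustment over all tested genes). Their median log2 fold change was 0.02, against 0.05 for all tested genes. Against ST2-high, 6 were higher, 7 lower and 7 not called, where 31.9% of all tested genes were higher and 32.6% lower, and the median was 0.0041 against 0.02. The counts against ST2-high were near the background, and against ST2-low the share of higher calls was somewhat above it. The split moved with the scaling: against ST2-low it was 8 higher and 7 lower with DESeq2 size factors and 7 and 7 with DESeq2's own test, and against ST2-high 8 and 3 with upper-quartile factors.

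Eprs encodes the enzyme that charges tRNAs for both glutamate and proline, and it belongs to the large synthetase complex. It was at 319.6, 355.0 and 332.4 CPM in ST2-low, 376.7, 351.0 and 408.7 CPM in ST2-high and 126.3, 121.9 and 122.1 CPM in ST2KO. The ST2KO libraries lay close together and well below all 6 wild-type libraries. The group means were 335.7 ± 17.9, 378.8 ± 28.9 and 123.4 ± 2.48 CPM (SD, n = 3). Eprs was 2.72-fold lower in ST2KO than in ST2-low (log2 fold change -1.44 ± 0.06 SE, edgeR adjusted p = 2.07e-19). Against ST2-high it was 3.06-fold lower (-1.62 ± 0.06, edgeR adjusted p = 1.13e-20). Counted from the most negative fold change, it stood at the 3.76th percentile of all tested genes against ST2-low and the 3.58th against ST2-high. No other annotated gene overlaps Eprs in GENCODE's GRCm38 annotation.

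The summed level of the 20 synthetases was 1438 to 1469 CPM in ST2-low, 1507 to 1569 CPM in ST2-high and 1270 to 1301 CPM in ST2KO, so that the ST2KO libraries lay below both wild-type groups. Without Eprs the same sums were 1092 to 1137, 1149 to 1160 and 1148 to 1179 CPM. ST2KO then no longer lay below the wild-type groups. Eprs made up 22.2%, 24.5% and 22.6% of the sum in ST2-low, 24.7%, 23.3% and 26.0% in ST2-high and 9.76%, 9.60% and 9.38% in ST2KO. These are shares of counts, not corrected for transcript length.

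**Figure D2:**
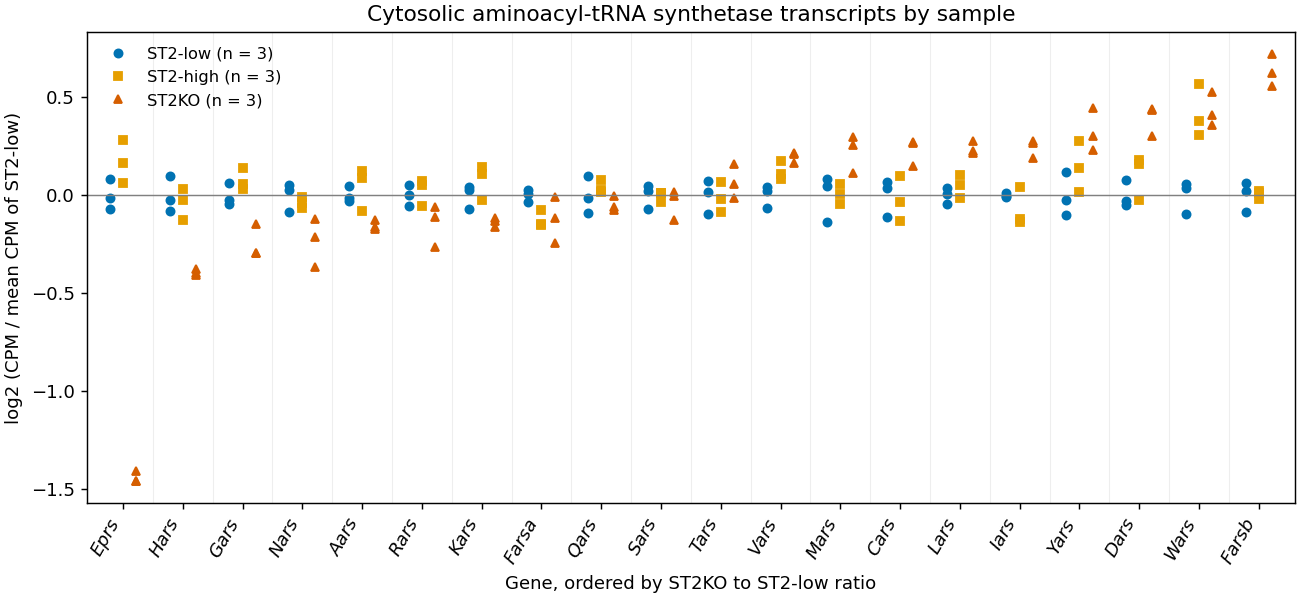
Level of each cytosolic synthetase in each library (y axis, log2 of CPM over the ST2-low mean; x axis, genes ordered by the ST2KO to ST2-low ratio). The 3 ST2KO points of Eprs stand alone at the bottom, and those of Farsb are the highest.

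Farsb, which encodes one of the paired subunits of phenylalanyl-tRNA synthetase, had the largest rise among the synthetases in ST2KO. It was at 23.9, 24.7 and 22.2 CPM in ST2-low, 23.9, 23.8 and 23.3 CPM in ST2-high and 39.0, 36.4 and 34.7 CPM in ST2KO. All ST2KO libraries were above all wild-type libraries. It was 1.56-fold higher in both comparisons (log2 fold change 0.65 ± 0.08 and 0.64 ± 0.08, edgeR adjusted p = 4.22e-08 and 4.38e-08). Farsa, the partner subunit, did not pass the test in either, with log2 fold changes of -0.12 ± 0.07 against ST2-low and -0.00 ± 0.07 against ST2-high. Farsb overlaps Sgpp2 by 2315 bases on the opposite strand in the annotation, and Sgpp2 was at 0 to 0.10 CPM.

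The other enzymes of the large complex moved in both directions in ST2KO, and by less than Eprs. Dars, the aspartyl enzyme, was at 57.8, 62.2 and 56.9 CPM in ST2-low, 65.9, 66.8 and 57.9 CPM in ST2-high and 79.8, 80.0 and 72.7 CPM in ST2KO. It was higher in ST2KO by 0.40 ± 0.07 and 0.29 ± 0.07 on the log2 scale (edgeR adjusted p = 4.51e-06 and 0.000316). Iars, the isoleucyl enzyme, was at 65.7, 65.8 and 66.5 CPM in ST2-low, 60.6, 60.1 and 67.8 CPM in ST2-high and 79.4, 80.0 and 75.3 CPM in ST2KO, where it was higher by 0.25 ± 0.06 and 0.32 ± 0.06. For both genes the ST2KO range lay above the wild-type ranges. Lars, the leucyl enzyme, rose by 0.24 ± 0.06 and 0.20 ± 0.06, and leaving out ST2-high replicate 1 ended the second call (edgeR adjusted p = 0.0962). Qars and Rars, for glutamine and arginine, differed from ST2-low by -0.05 ± 0.06 and -0.14 ± 0.07 and Kars, for lysine, by -0.14 ± 0.06. None of the 3 passed the test, though Kars was called lower in 5 alternative runs and Rars in 4. Against ST2-high, Kars fell by 0.22 on the log2 scale (edgeR adjusted p = 0.00314), a call lost with upper-quartile factors (0.0519), and Rars fell by 0.17 (0.0447), a call lost in 10 alternatives. The scaffold proteins of the complex, Aimp1 and Eef1e1, were not called in any comparison, and Aimp2 was higher in ST2KO than in ST2-high (0.33 ± 0.14, edgeR adjusted p = 0.0397).

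Among the synthetases outside the complex, Hars, Gars and Nars, for histidine, glycine and asparagine, were lower in ST2KO. Hars was at 44.6, 50.4 and 46.4 CPM in ST2-low, 43.2, 46.4 and 48.2 CPM in ST2-high and 36.3, 35.5 and 35.8 CPM in ST2KO, a change of -0.39 ± 0.07 and -0.35 ± 0.07 on the log2 scale (edgeR adjusted p = 1.68e-05 and 7.43e-05). Gars was at 79.3, 73.7 and 74.8 CPM in ST2-low, 83.5, 77.7 and 79.0 CPM in ST2-high and 61.9, 61.8 and 68.6 CPM in ST2KO (-0.25 ± 0.06 and -0.33 ± 0.06). In both genes no ST2KO library reached the wild-type range. Hars overlaps Hars2 by 198 bases on the opposite strand. Hars2 changed in ST2KO by -0.23 ± 0.08 against ST2-low (edgeR adjusted p = 0.0126) and by -0.02 ± 0.08 against ST2-high (not called). Nars changed by -0.23 ± 0.06 and -0.20 ± 0.06, and its call against ST2-high was lost without ST2KO replicate 2 (edgeR adjusted p = 0.0842) and with upper-quartile factors (0.101). Yars, the tyrosyl enzyme whose promoter is printed above, rose against ST2-low by 0.32 ± 0.09 (edgeR adjusted p = 0.00385) and was not called against ST2-high (0.18 ± 0.09, 0.0835). Vars, the valyl enzyme, was at 178.8, 168.4 and 180.9 CPM in ST2-low, 189.8, 186.5 and 199.0 CPM in ST2-high and 203.8, 197.1 and 204.3 CPM in ST2KO. It rose against ST2-low by 0.20 ± 0.05 (edgeR adjusted p = 0.00121) and was not called against ST2-high, whose highest library overlapped the ST2KO range. Sars and Tars, for serine and threonine, were not called in any comparison.

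Calls on Aars, Cars and Mars, which charge alanine, cysteine and methionine, and on Rars could be ended by leaving out 1 library. Against ST2-low, Aars (-0.15 ± 0.07) was no longer called without ST2-low replicate 1 or 3 or without ST2KO replicate 1, 2 or 3 (edgeR adjusted p between 0.0538 and 0.139), and with upper-quartile factors the adjusted p was 0.271. Cars (0.23 ± 0.09) lost its call without ST2-low replicate 1 or 2 or ST2KO replicate 1 or 3 (0.0607 to 0.152), and Mars (0.21 ± 0.08) without ST2-low replicate 2 or ST2KO replicate 2 or 3 (0.0587 to 0.223). Against ST2-high, Aars (-0.20 ± 0.07) lost its call without ST2-high replicate 2 (0.0615), and Cars (0.26 ± 0.09) without ST2-high replicate 1 (0.171) or ST2KO replicate 1 (0.0746). Mars (0.21 ± 0.08) lost it without ST2-high replicate 1 or 2 or ST2KO replicate 2 or 3 (0.0628 to 0.0841). Rars (-0.17 ± 0.07) lost its call in 10 of the alternatives, among them those without ST2-high replicate 1 or 2 or ST2KO replicate 1 or 2 (0.067 to 0.223). Aars overlaps Exosc6 by 1326 bases on the same strand. Exosc6 was at 7.01 to 11.4 CPM over all libraries and was also lower in ST2KO than in ST2-low (-0.33 ± 0.14, edgeR adjusted p = 0.0484).

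Between the wild-type groups, 2 of the 20 synthetases were higher in ST2-high, 0 were lower and 18 were not called, where 15.3% of all tested genes were higher and 10.8% lower. So small a count is at or below the background share. Their median log2 fold change was 0.03, against -0.0024 for all tested genes. Wars, the tryptophanyl enzyme, whose gene is known to respond to interferon, was at 36.9, 33.2 and 36.4 CPM in ST2-low, 46.2, 43.9 and 52.6 CPM in ST2-high and 45.5, 51.3 and 47.1 CPM in ST2KO. All ST2-high and ST2KO libraries were above all ST2-low libraries. Relative to ST2-low, Wars was 1.34-fold higher in ST2-high (0.42 ± 0.08, edgeR adjusted p = 8.16e-05) and 1.35-fold higher in ST2KO (0.43 ± 0.08, 1.38e-05). The difference between ST2KO and ST2-high was 0.01 ± 0.07. Wdr25, which overlaps Wars by 544 bases on the opposite strand, was at 3.16 to 5.26 CPM. Eprs was 0.17 ± 0.06 higher in ST2-high (edgeR adjusted p = 0.0187), and the ranges overlapped. That call was lost without ST2-low replicate 1 (0.118) or 3 (0.0723), without ST2-high replicate 1 (0.0512) or 3 (0.0926), and with a filter of 5 CPM (0.0505).

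In the ATF4 group, ST2KO libraries were lower for more genes than they were higher. Of 16 tested genes, 2 were higher, 6 lower and 8 not called against ST2-low, with a median log2 fold change of -0.17 against 0.05 for all tested genes. Against ST2-high, 0 were higher, 9 lower and 7 not called, with a median of -0.26 against 0.02. These 9 of 16 lower and 0 of 16 higher stand beside 32.6% and 31.9% of all tested genes, and the 6 lower and 2 higher against ST2-low beside 29.3% and 33%. No test of the list was made. With upper-quartile factors the split against ST2-low was 3 higher and 5 lower. Between the wild-type groups 4 were higher in ST2-high, 2 lower and 10 not called, beside 15.3% and 10.8% of all tested genes, and only 1 call was left without ST2-low replicate 2.

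**Figure D3:**
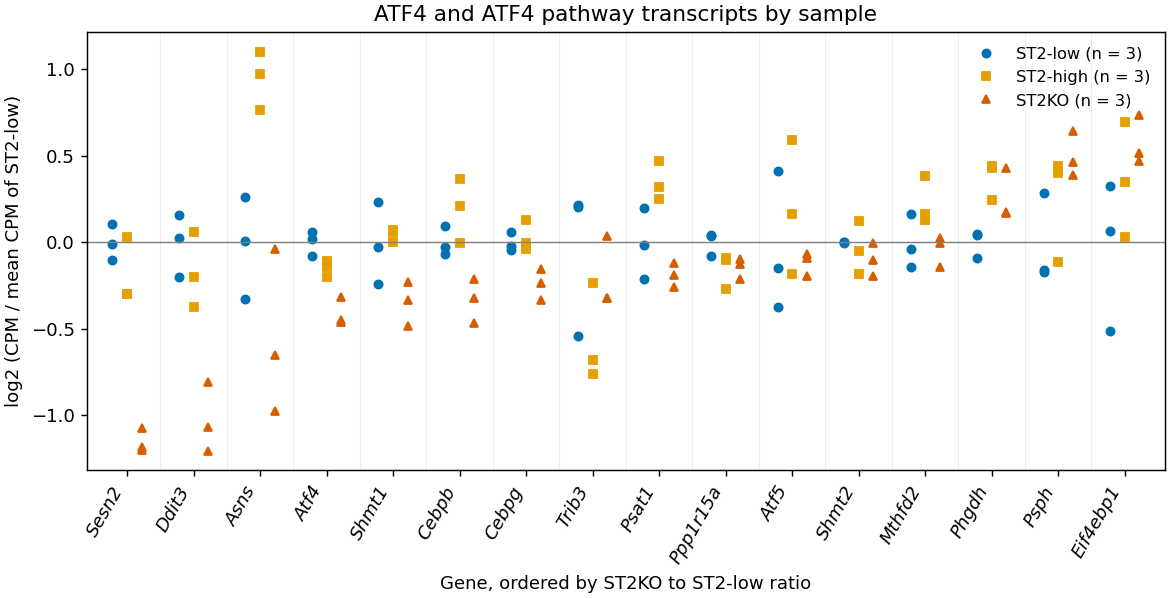
Level of each tested gene of the ATF4 group in each library (y axis, log2 of CPM over the ST2-low mean; x axis, genes ordered by the ST2KO to ST2-low ratio). Sesn2 and Ddit3 show 3 ST2KO points below all wild-type points, and Asns shows 3 ST2-high points above all others.

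The mRNA of Atf4 itself was lower in ST2KO. It was at 226.7, 242.9 and 250.3 CPM in ST2-low, 208.8, 222.6 and 217.4 CPM in ST2-high and 175.7, 174.2 and 192.4 CPM in ST2KO. No ST2KO library reached the wild-type range. The change was -0.41 ± 0.05 against ST2-low and -0.26 ± 0.05 against ST2-high on the log2 scale (edgeR adjusted p = 1e-07 and 0.000108). Between the wild-type groups Atf4 was lower in ST2-high by -0.15 ± 0.05 (edgeR adjusted p = 0.0359), a call lost without ST2-low replicate 2 (0.105) or 3 (0.184), without ST2-high replicate 1 (0.161), and after thinning all libraries to the shallowest (0.089). Atf5, a related factor that is also controlled at translation, was at 2.59 to 5.08 CPM in all libraries and was not called in any comparison.

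Cebpb and Cebpg, which encode dimer partners of ATF4, were lower in ST2KO as well. Cebpb was at 52.3, 58.4 and 53.7 CPM in ST2-low, 54.5, 63.3 and 70.7 CPM in ST2-high and 39.7, 43.9 and 47.2 CPM in ST2KO, all below the wild-type libraries. It changed by -0.34 ± 0.08 against ST2-low and -0.53 ± 0.08 against ST2-high (edgeR adjusted p = 0.000766 and 2.86e-06). Tmem189, which overlaps Cebpb by 908 bases on the opposite strand, was also lower, at 33.6 to 40.5 CPM in ST2KO and 44.2 to 51.4 CPM in the wild-type libraries, and reads of the overlap cannot be told apart without the strand setting. Cebpb is also expressed in myeloid cells, whose markers were lower in ST2KO (46.8 to 62.1 CPM in sum, against 156 to 221 CPM in wild type), and their part in this change was not tested. Cebpg was at 49.4, 53.1 and 50.2 CPM in ST2-low, 49.6, 50.7 and 55.6 CPM in ST2-high and 45.7, 40.4 and 43.2 CPM in ST2KO, a change of -0.23 ± 0.07 and -0.26 ± 0.07.

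Ddit3 encodes CHOP, a C/EBP family factor raised by ATF4 under prolonged stress. It was at 10.97, 12.85 and 14.07 CPM in ST2-low, 9.73, 13.16 and 11.01 CPM in ST2-high and 7.23, 6.02 and 5.48 CPM in ST2KO. Every ST2KO library was below every wild-type library. Ddit3 was 1.97-fold lower than in ST2-low and 1.74-fold lower than in ST2-high (-0.98 ± 0.14 and -0.80 ± 0.15, edgeR adjusted p = 8.85e-07 and 1.92e-05). It shares 68 bases with Mars on the opposite strand. Trib3, a pseudokinase induced by ATF4 and CHOP that feeds back on them, was at 3.57, 3.53 and 2.11 CPM in ST2-low, 1.81, 2.61 and 1.91 CPM in ST2-high and 3.15, 2.45 and 2.45 CPM in ST2KO. The groups overlapped and none of the 3 comparisons passed the test. Without ST2-low replicate 3, the lowest library of its group, Trib3 was called in ST2-high against ST2-low (edgeR adjusted p = 0.038).

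Among the stress-feedback genes, Sesn2 moved most. Sestrin 2 restrains mTORC1 when leucine is short. Sesn2 was at 24.7, 26.4 and 28.6 CPM in ST2-low, 21.6, 27.1 and 21.6 CPM in ST2-high and 11.7, 11.6 and 12.6 CPM in ST2KO. The wild-type groups overlapped and the ST2KO libraries were far below both. It was 2.24-fold lower than in ST2-low and 1.96-fold lower than in ST2-high (-1.16 ± 0.10 and -0.97 ± 0.10, edgeR adjusted p = 4.8e-11 and 2.13e-09). Sesn2 overlaps the annotated gene Gm12981 by 6089 bases on the same strand. Ppp1r15a encodes GADD34, a regulatory subunit of the phosphatase that removes the phosphate from eIF2. It was at 475.3, 514.9 and 517.6 CPM in ST2-low, 416.1, 471.5 and 468.7 CPM in ST2-high and 459.9, 434.4 and 469.6 CPM in ST2KO. It was 1.11-fold lower than in ST2-low in both other groups (-0.15 ± 0.06 and -0.14 ± 0.06, edgeR adjusted p = 0.0392 and 0.0242), with 0.01 ± 0.06 between them. The ST2-high call was lost without ST2-low replicate 2 (0.135) or 3 (0.162) or ST2-high replicate 1 (0.284). The ST2KO call was lost without ST2-low replicate 3 (0.102) or ST2KO replicate 2 (0.128), and with upper-quartile factors (0.243). Eif4ebp1, an inhibitor of cap-dependent translation, was at 1.40 to 3.33 CPM in all libraries and was not called, with 0.56 ± 0.26 for ST2KO relative to ST2-low (0.0579 adjusted).

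**Figure D4:**
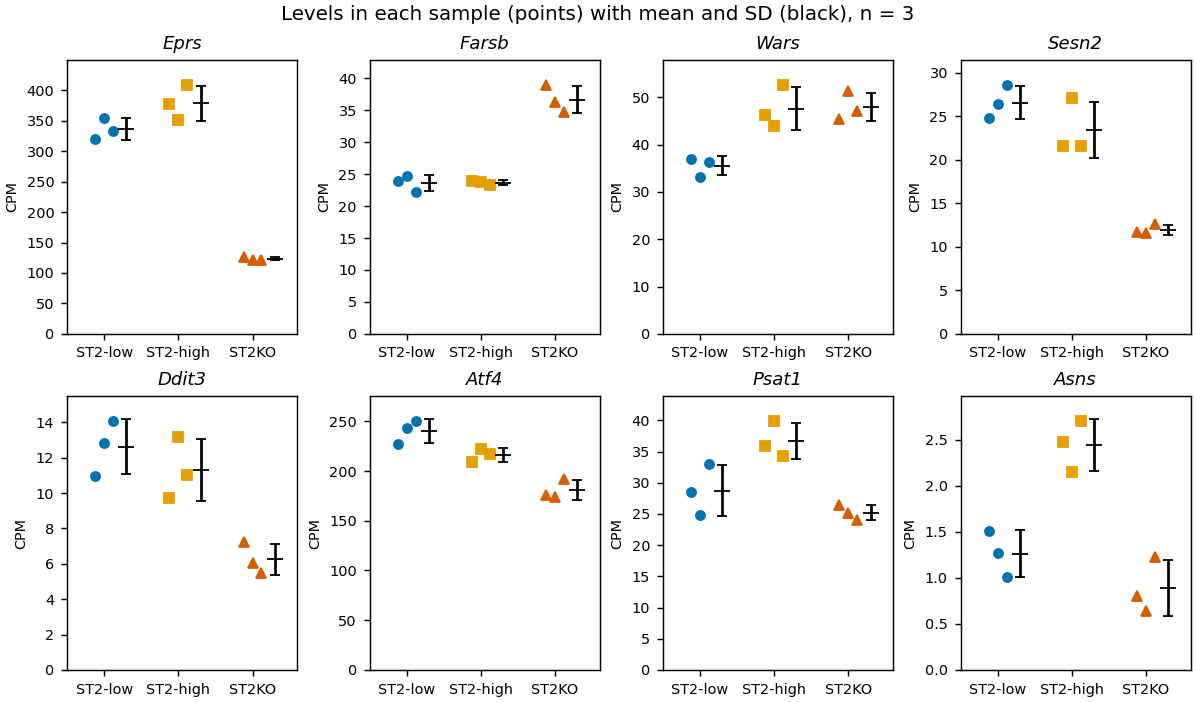
CPM (y axis, from 0) of 8 genes in each library of the 3 groups (x axis), with the group mean and SD in black (n = 3). In Eprs, Sesn2, Ddit3 and Atf4 the 3 ST2KO points lie below all wild-type points, in Farsb above them, and in Wars the ST2-low points lie lowest.

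Several genes of amino acid synthesis had their highest mean in ST2-high. Asns encodes asparagine synthetase, a defining ATF4 target. It was at 1.51, 1.27 and 1.01 CPM in ST2-low, 2.48, 2.15 and 2.703 CPM in ST2-high and 0.80, 0.64 and 1.23 CPM in ST2KO. ST2-high lay above both other groups, which overlapped. Asns was 2.84-fold lower in ST2KO than in ST2-high (-1.51 ± 0.33, edgeR adjusted p = 0.000188) and 1.93-fold higher in ST2-high than ST2-low (0.95 ± 0.31, 0.0235). The second call was lost without ST2-low replicate 2 (0.0631) or 3 (0.104), without ST2-high replicate 1 (0.0768) or 3 (0.0625), and after thinning to the shallowest library (0.221). ST2KO against ST2-low gave -0.56 ± 0.35 and did not pass (0.168).

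Phgdh, Psat1 and Psph encode the enzymes that make serine from a glycolytic intermediate, in that order. Phgdh was at 34.7, 31.6 and 34.6 CPM in ST2-low, 45.7, 45.3 and 39.8 CPM in ST2-high and 38.1, 37.8 and 45.3 CPM in ST2KO. It was 1.30-fold higher in ST2-high than ST2-low (0.38 ± 0.08, edgeR adjusted p = 0.000513). In ST2KO it was 1.19-fold higher than in ST2-low (0.25 ± 0.08, 0.0078), a call lost without ST2-low replicate 2 (0.092) or ST2KO replicate 3 (0.0664). Psat1 was at 28.5, 24.8 and 33.0 CPM in ST2-low, 35.9, 39.9 and 34.2 CPM in ST2-high and 26.4, 25.2 and 24.1 CPM in ST2KO. It was 1.27-fold higher in ST2-high than ST2-low (0.35 ± 0.09, edgeR adjusted p = 0.00397), a call lost without ST2-low replicate 2 (0.0559), and 1.44-fold lower in ST2KO than in ST2-high (-0.53 ± 0.09, 8.2e-06). Psph was at 9.46, 6.95 and 6.88 CPM in ST2-low, 10.3, 10.6 and 7.19 CPM in ST2-high and 10.7, 12.1 and 10.1 CPM in ST2KO, where it was 1.42-fold higher than in ST2-low (0.50 ± 0.15, edgeR adjusted p = 0.00522). The means of the 3 steps of one pathway thus gave 3 different orders of the groups, in which not every neighbouring pair passed the test. Psph overlaps a transcript of Cct6a by 452 bases on the opposite strand.

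The folate enzymes of the ATF4 group had no call that held in every alternative run. Mthfd2, a mitochondrial enzyme of the one-carbon cycle, was at 30.6, 32.9 and 37.9 CPM in ST2-low, 37.04, 44.18 and 37.91 CPM in ST2-high and 33.7, 30.7 and 34.4 CPM in ST2KO. It was lower in ST2KO than in ST2-high (-0.27 ± 0.08, edgeR adjusted p = 0.00711). That call was lost without ST2-high replicate 2 (0.0678), with upper-quartile factors (0.053) and after thinning to the shallowest library (0.053). Its higher level in ST2-high than in ST2-low (0.23 ± 0.08, 0.0474) was lost in 11 alternatives, including those without ST2-low replicate 1 (0.236), ST2-low replicate 2 (0.142) or ST2-high replicate 2 (0.265). Shmt1, the cytosolic serine hydroxymethyltransferase, was at 4.58 to 7.51 CPM and was called lower in ST2KO than in ST2-high (-0.37 ± 0.16, edgeR adjusted p = 0.0493). That call was lost in 10 alternatives, among them those without ST2-high replicate 1 or 2 or ST2KO replicate 1, 2 or 3 (0.0563 to 0.117). Shmt2, its mitochondrial counterpart, was not called in any comparison and differed by at most -0.09 ± 0.08.

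The proliferation genes moved with the ST2-high label, as did Asns and Psat1. Of 18 proliferation genes, 16 were higher in ST2-high than ST2-low, beside 15.3% of all tested genes. In ST2KO against ST2-high 18 were lower, beside 32.6%. Their summed level was 647 to 668 CPM in ST2-low, 1067 to 1195 CPM in ST2-high and 551 to 563 CPM in ST2KO. The part of proliferation in the differences of Asns and Psat1 was not tested.

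Upstream of ATF4, the 4 eIF2 kinases did not change together. Eif2ak3, which encodes PERK, the kinase of the endoplasmic reticulum, was at 187.1, 174.6 and 170.1 CPM in ST2-low, 145.8, 136.4 and 133.2 CPM in ST2-high and 50.1, 51.8 and 53.8 CPM in ST2KO, so that the 3 groups did not overlap. It was 3.43-fold lower in ST2KO than in ST2-low (-1.78 ± 0.06, edgeR adjusted p = 1.27e-21), 2.68-fold lower than in ST2-high (-1.42 ± 0.06, 2.34e-19) and 1.28-fold lower in ST2-high than in ST2-low (-0.35 ± 0.05, 5.87e-06). Eif2ak2, which encodes PKR, went the other way, at 27.7, 32.0 and 24.6 CPM in ST2-low, 39.9, 36.8 and 35.1 CPM in ST2-high and 51.3, 53.6 and 45.3 CPM in ST2KO. Against ST2-low it was 1.79-fold higher in ST2KO (0.84 ± 0.09, edgeR adjusted p = 8.51e-10). Eif2ak1 (HRI) and Eif2ak4 (GCN2) were named after their values were seen, to complete the family. They changed in ST2KO against ST2-low by -0.31 ± 0.06 (edgeR adjusted p = 6.39e-05) and -0.09 ± 0.09 (not called). Eif2ak1 was at 67.5, 62.7 and 62.9 CPM in ST2-low, 71.1, 75.2 and 70.7 CPM in ST2-high and 53.5, 50.5 and 51.1 CPM in ST2KO. Impact, an inhibitor of GCN2 activation, was at 105.7 to 122.3 CPM in ST2-low, 115.4 to 130.3 CPM in ST2-high and 46.3 to 57.3 CPM in ST2KO, 2.24-fold and 2.44-fold lower. Dnajc3, an inhibitor of PERK and PKR, was 1.46-fold and 1.54-fold higher in ST2KO. Of all 17 genes of eIF2 kinases, eIF2, eIF2B and their regulators, 4 were higher and 9 lower in ST2KO against ST2-low, beside 33% and 29.3% of all tested genes. Against ST2-high, 4 were higher and 7 lower, beside 31.9% and 32.6%, and between the wild-type groups 2 and 1, beside 15.3% and 10.8%.

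**Figure D5:**
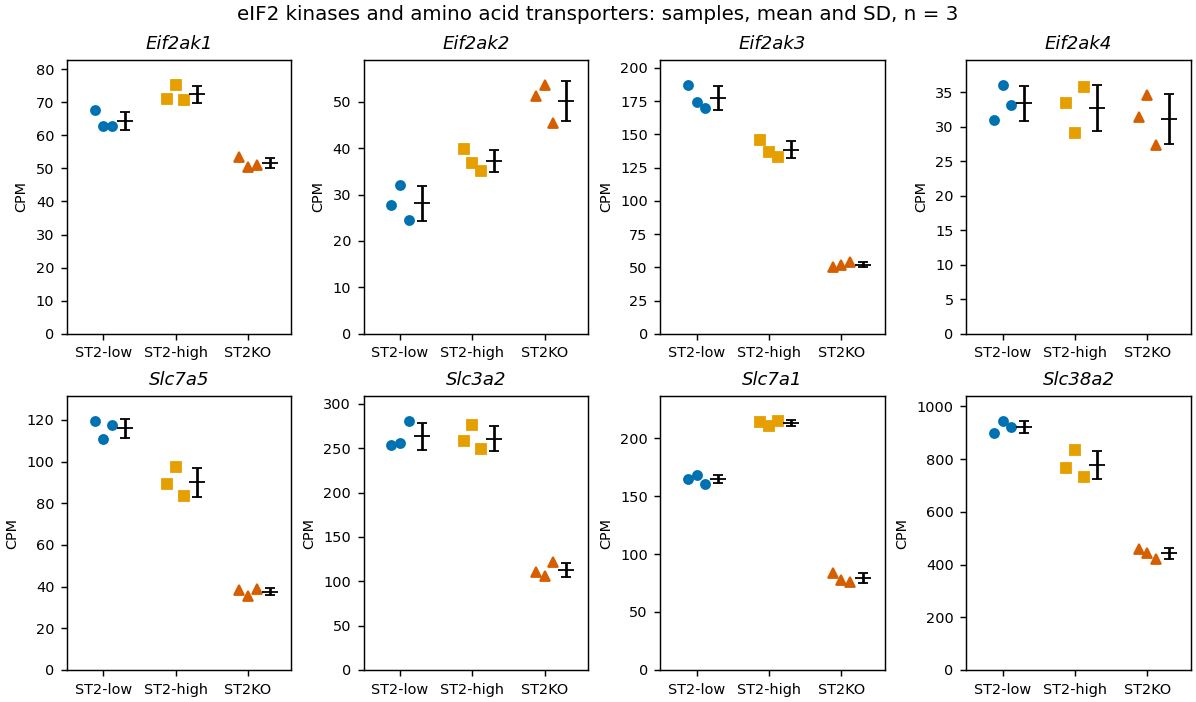
CPM (y axis, from 0) of the 4 eIF2 kinase genes and 4 amino acid transporter genes in each library of the 3 groups (x axis), with the group mean and SD in black (n = 3). The ST2KO points lie lowest in Eif2ak1, in Eif2ak3 and in all 4 transporters, and highest in Eif2ak2.

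Among the transporter genes known as ATF4 targets, Slc7a5, Slc3a2, Slc7a1 and Slc38a2 were lower in ST2KO than in both wild-type groups, and not all of the others were. Slc7a5 and Slc3a2 encode the light and heavy chains of the leucine transporter LAT1. Slc7a5 was at 119.4, 110.8 and 117.4 CPM in ST2-low, 89.5, 97.4 and 83.5 CPM in ST2-high and 38.3, 35.6 and 38.8 CPM in ST2KO, 3.08-fold lower than in ST2-low and 2.40-fold lower than in ST2-high. Slc3a2 was at 253.9 to 280.6 CPM in ST2-low, 249.0 to 275.7 CPM in ST2-high and 105.5 to 121.4 CPM in ST2KO, 2.35-fold and 2.32-fold lower. Slc7a1, an arginine and lysine transporter, was at 160.8 to 168.0, 210.5 to 214.7 and 76.2 to 83.9 CPM in the same order, and Slc38a2, a transporter of small neutral amino acids, at 899.0 to 944.6, 731.9 to 835.6 and 421.3 to 460.7 CPM. In all 4 the ST2KO libraries lay below every wild-type library (edgeR adjusted p between 2.56e-20 and 5.75e-14). The naming rule picks these 4 by their small adjusted p, so 4 other transporters of the list that were tested are given too, chosen after their values were seen. Slc1a5, a glutamine transporter, was at 176.4, 183.3 and 186.2 CPM in ST2-low, 204.0, 209.8 and 215.8 CPM in ST2-high and 195.3, 204.9 and 209.4 CPM in ST2KO, and rose by 0.16 ± 0.05 in ST2KO relative to ST2-low (edgeR adjusted p = 0.00789). Slc7a3, at 0.24 to 1.38 CPM, was not called relative to ST2-low and was higher in ST2KO than in ST2-high (1.26 ± 0.50, 0.0283). Slc7a11, at 0 to 1.32 CPM, was lower in ST2KO in both comparisons, and Slc1a4 was not called.

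Of the 30 other ATF4 target genes listed, 20 were tested: 4 were higher and 10 lower in ST2KO against ST2-low, with a median log2 fold change of -0.47, and 2 and 10 against ST2-high, with -0.60. The shares of all tested genes were 33% higher and 29.3% lower in the first and 31.9% and 32.6% in the second. In ST2-high against ST2-low, 7 were higher and 5 lower, beside 15.3% and 10.8% of all tested genes. Atf3, a stress factor downstream of ATF4, was at 26.2, 19.4 and 23.5 CPM in ST2-low, 37.6, 34.3 and 30.1 CPM in ST2-high and 4.71, 5.73 and 7.12 CPM in ST2KO. Ddit4, an mTORC1 inhibitor, had a higher level in ST2KO relative to ST2-low (0.83 ± 0.08, edgeR adjusted p = 1.37e-10), at 32.9, 36.3 and 37.9 CPM in ST2-low, 58.9, 64.5 and 70.9 CPM in ST2-high and 65.2, 68.2 and 56.9 CPM in ST2KO.

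The synthetases of mitochondria are encoded by separate nuclear genes. Of 17 tested, 10 were higher and 2 lower in ST2KO against ST2-low, with a median log2 fold change of 0.30, beside 33% and 29.3% of all tested genes and a median of 0.05. Against ST2-high, 8 were higher and 1 lower, with a median of 0.36, beside 31.9% and 32.6% and a median of 0.02. The cytosolic enzymes had medians of 0.02 and 0.0041 in the same comparisons. Rars2 was at 8.21, 7.45 and 7.59 CPM in ST2-low, 6.70, 8.87 and 8.17 CPM in ST2-high and 17.98, 15.37 and 15.71 CPM in ST2KO, 2.13-fold and 2.11-fold higher (edgeR adjusted p = 1.36e-08 and 1.47e-08). Tars2 was at 63.5, 73.7 and 71.1 CPM in ST2-low, 54.1, 55.9 and 59.0 CPM in ST2-high and 101.8, 103.3 and 119.8 CPM in ST2KO, the highest of the 3 groups. Iars2 went the other way, at 75.6, 80.9 and 71.9 CPM in ST2-low, 95.4, 85.8 and 92.8 CPM in ST2-high and 61.6, 60.8 and 59.9 CPM in ST2KO. In ST2-high against ST2-low, 1 was higher and 3 lower, beside 15.3% and 10.8%. Xpot, which exports tRNA from the nucleus, was 0.33 ± 0.07 and 0.49 ± 0.07 higher in ST2KO on the log2 scale.

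The other arms of the unfolded protein response, through IRE1 and ATF6, were counted the same way. Of 18 genes, 1 was higher and 12 lower in ST2KO against ST2-low, with a median log2 fold change of -0.32, beside 33% and 29.3% of all tested genes. Against ST2-high, 1 was higher and 13 lower, with a median of -0.36, beside 31.9% and 32.6%. In ST2-high against ST2-low, 4 were higher and 3 lower, beside 15.3% and 10.8%. Xbp1, the factor spliced by IRE1, was at 192.8 to 201.3 CPM in ST2-low, 167.8 to 181.7 CPM in ST2-high and 59.5 to 62.9 CPM in ST2KO, 3.23-fold and 2.83-fold lower. Xbp1 is also abundant in plasma cells, whose 4 tested markers were all lower in ST2KO in both comparisons, and their part in this change was not tested.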

How the data were processed

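RNA of sorted mouse spleen Tregs was sequenced in 9 libraries, 3 per group, grouped by the genotype labels. The authors deposited whole-number read counts per gene symbol for each library, with no normalization, per the file headers and values. The sources used here do not give the aligner, genome build, annotation, counting tool or strand setting, so reads of overlapping genes could have been split between them. Each file had 23420 rows, of which 27 held a date in place of a symbol (0.182% to 0.206% of counts) and were left out. The ribosomal RNA precursor Rn45s took 12.1% to 16.9% of counts.

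Counts were filtered with filterByExpr (minimum count 10, minimum total 15), scaled with TMM factors and tested in R 4.3.3 with the quasi-likelihood test of edgeR 4.0.16 on all 9 libraries with 1 coefficient per group. P-values were adjusted by the Benjamini-Hochberg method over 12219 genes, and a gene was called at an adjusted p under 0.05. CPM used the TMM-scaled library sizes, and SE is that of the log2 fold change. The fit was also run on simulated data with far fewer changed genes than were called in ST2KO, so that run does not check the scaling of the ST2KO comparisons. No pair of libraries in a group agreed within sampling noise (chi-square per gene 4.46 to 19.9 over 9 pairs), so none was treated as a library deposited more than once. This does not show that they were separate samples.

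The members and gene lists were chosen with earlier results of these data known. All members are named; of every other list, the 4 or fewer tested genes lowest in adjusted p were named, where the higher group had 1 CPM or more. A gene that this rule names is not reported here. Other lists were mitochondrial synthetases, complex scaffold and tRNA export, eIF2 kinases with eIF2 and eIF2B, other ATF4 targets, serine and one-carbon genes, C/EBP and ATF/CREB factors, eIF4E-binding proteins and sestrins, the IRE1 and ATF6 arms, proliferation, and markers of Tregs and of B, plasma, myeloid, neutrophil, NK and erythroid cells. Promoters came from RefSeq (GRCm38.p6), and overlaps from GENCODE M21. Alternatives were DESeq2 size factors, upper-quartile factors, the Wald test of DESeq2 1.42.0, voom with limma 3.58.1, a filter of 5 CPM in 3 libraries or none, only the 6 libraries compared, Rn45s left out, thinning to the shallowest library, the replicate number as a block, and each library left out.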

Additional observations from a re-analysis of the deposited data

How the results depend on the processing

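No value changed sign among called results under any alternative run. Of 22 members called in ST2KO against ST2-low, 17 were called in every alternative, as were 13 of 22 against ST2-high and 2 of 8 in ST2-high against ST2-low (Wars and Phgdh). Calls gained in some alternative numbered 6, 3 and 6. In ST2-high against ST2-low, called synthetases went from 2 to 1 with the filter of 5 CPM, and ranged from 1 to 2 when single libraries were left out. Called ATF4 group genes went from 6 to 3 after thinning, and ranged from 1 to 6 when single libraries were left out. Over all tested genes in that comparison, the 5 CPM filter gave 1456 higher and 1666 lower, against 1872 and 1317. With only the 6 libraries compared, synthetases in ST2KO against ST2-low split into 8 higher and 8 lower. Deviations of same-numbered libraries correlated between -0.0788 and 0.13 over 9 pairs, and 5 of 9 libraries correlated best with one of their own number. With 3 libraries per group, these values cannot tell whether the replicate numbers pair the samples. With the replicate number as a block, 2, 14 and 13 synthetases were called in ST2-high against ST2-low, ST2KO against ST2-low and ST2KO against ST2-high, with 7, 8 and 9 ATF4 group genes and 3210, 7622 and 7885 of all tested genes. The cause of these changes was not tested. Depth limits Asns, Chac1, Trib3, Atf5 and Eif4ebp1, whose levels were a few CPM or less.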

Other observations

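Other families related to ATF4 were described by counts, to be read beside the shares of all tested genes: 33% higher and 29.3% lower in ST2KO against ST2-low, 31.9% and 32.6% against ST2-high, and 15.3% and 10.8% in ST2-high against ST2-low. Of 12 tested C/EBP and ATF/CREB factors outside the ATF4 group, 3 were higher and 6 lower in ST2KO against ST2-low, 2 and 6 against ST2-high, and 4 and 4 in ST2-high against ST2-low. Crem, a cAMP-responsive factor, was at 304.5, 320.1 and 323.6 CPM in ST2-low, 331.9, 344.2 and 334.4 CPM in ST2-high and 36.2, 42.1 and 48.0 CPM in ST2KO (-2.93 ± 0.07 and -3.03 ± 0.07 on the log2 scale). Creb1, which binds the same element, was at 98.5, 100.3 and 94.7 CPM in ST2-low, 128.1, 125.2 and 132.3 CPM in ST2-high and 208.4, 203.4 and 201.9 CPM in ST2KO, so that the groups did not overlap. Batf was 2.05-fold higher in ST2-high against ST2-low.

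Of 15 tested serine and one-carbon genes outside the ATF4 group, 4 were higher and 4 lower in ST2KO against ST2-low, 6 and 6 against ST2-high, and 2 and 1 in ST2-high against ST2-low. Atic, of purine synthesis, was 1.55-fold and 1.46-fold higher in ST2KO. Of 10 genes of eIF4E-binding proteins, sestrins and mTORC1, 3 were higher and 5 lower against ST2-low, 3 and 2 against ST2-high, and 1 and 1 between the wild-type groups. Sesn1 was 1.39-fold higher in ST2KO than in ST2-low, while Sesn2 was 2.24-fold lower.

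Of the marker lists, 7 Treg markers gave 3 higher and 1 lower in ST2KO against ST2-low, beside 33% and 29.3% of all tested genes. Against ST2-high they gave 2 higher and 3 lower, beside 31.9% and 32.6%. In ST2-high against ST2-low they gave 4 higher and 0 lower, beside 15.3% and 10.8%. In ST2KO against ST2-low, where 33% of all tested genes were higher and 29.3% lower, 0 of 10 B cell markers were higher and 6 lower. Of 6 tested neutrophil markers 0 were higher and 5 lower (edgeR's quasi-likelihood test). Of 4 tested NK cell markers 1 was higher and 1 lower, and none of the 2 tested erythroid markers was called. Klra8, Klra4, Hba-a1 and Hba-a2 were at 0 in all libraries.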
